A study of Mus musculus with 8 samples.

Results

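The genes described here carry glucose and related sugars across the tubule cell membrane, make glucose, or break it down. A list of 41 gene symbols was looked up in the deposited table of 35275 genes, and all 41 were found. The lookup used gene names only and no measured value, but the list was drawn up with earlier results of these data known. The list holds 4 sodium-coupled carriers, 5 facilitative carriers, 9 enzymes and carriers of gluconeogenesis and fructose use, 9 genes of the one-way steps of glycolysis and their control, 8 genes of its reversible steps and 6 genes of lactate and pyruvate use.

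The kidney filters glucose in the glomerulus and takes it back in the proximal tubule, where sodium-coupled carriers bring it in from the urine side and facilitative carriers let it out on the blood side. Proximal tubule cells also make glucose from lactate, glutamine and other precursors, and burn little of it themselves. Glycolysis is the task of later segments, such as the thick ascending limb and the collecting duct, and of cells outside the tubule. The same kidney therefore holds glucose-making and glucose-burning cells side by side, and bulk RNA reads both at once.

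The study compared kidneys of 4 male mice lacking functional C1qtnf1 (KO) with those of 4 wild-type male littermates (WT), to describe what loss of its product, the secreted protein CTRP1, does in older obese animals. All 8 were 40 weeks old and had eaten food rich in fat (60% of calories) since the age of 6 weeks. KO mice were homozygous for a deletion of 679 bp in exon 4, of which 162 bp belong to the 3′ UTR. The deletion was made in 129S5 embryonic stem cells, backcrossed to C57BL/6J over more than 6 generations, and is present in every cell of the body. RNA came from the whole left kidney, so all segments, vessels and interstitial cells are mixed, and fewer cells of a type cannot be told apart from less RNA per cell. Each library came from 1 mouse.

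The 8 libraries held 17884140 to 20344859 reads. C1qtnf1 fell from 5.37 ± 0.23 FPKM in WT to 0.61 ± 0.214 in KO (SD, n = 4 each, limma adjusted p = 2.5e-05), and each library matched its label. FPKM stands for fragments scaled for gene length and for sequencing depth, so FPKM of different genes can be set side by side. KO replicate 2 stood apart from the other libraries. Its short genes were high and its long genes low, with a Spearman correlation of -0.59 between a gene's deviation from the WT mean and its length over the 12118 genes tested. In the other 7 libraries this correlation lay between -0.16 and 0.21. These correlations describe libraries in which each gene shares the same depth and scaling. Values without this mouse are given beside many of the results.

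None of the 39 genes that could be tested differed between KO and WT in limma's test at an adjusted p under 0.05. Over all 12118 genes tested, 0.0413% passed. Hk2 and Slc2a3 had a mean FPKM under 1 and were not tested. At an unadjusted p under 0.05 there were 7 of the 39 (17.9%), against 6.12% of all genes tested. Of these, 5 were lower in KO (Pklr, Pdk1, Slc2a5, Slc5a1 and Pfkfb2; 2.2% of all genes) and 2 higher (Aldoc and Pfkp; 3.93% of all genes). The 4 KO values lay wholly outside the WT range for 6 genes (15.4%), against 5.17% of all genes tested. Since the list was drawn up with earlier results of these data known, these shares are a description. Without KO replicate 2, the count at an unadjusted p under 0.05 was 4 higher and 6 lower, against 11.7% of all genes, and 0 passed after adjustment by limma. With limma-voom on the recovered reads 0 passed as well, and 7 were at an unadjusted p under 0.05. Every tested gene of the list had at least 68 reads in each mouse, and the highest had 129319.

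**Figure D1:**
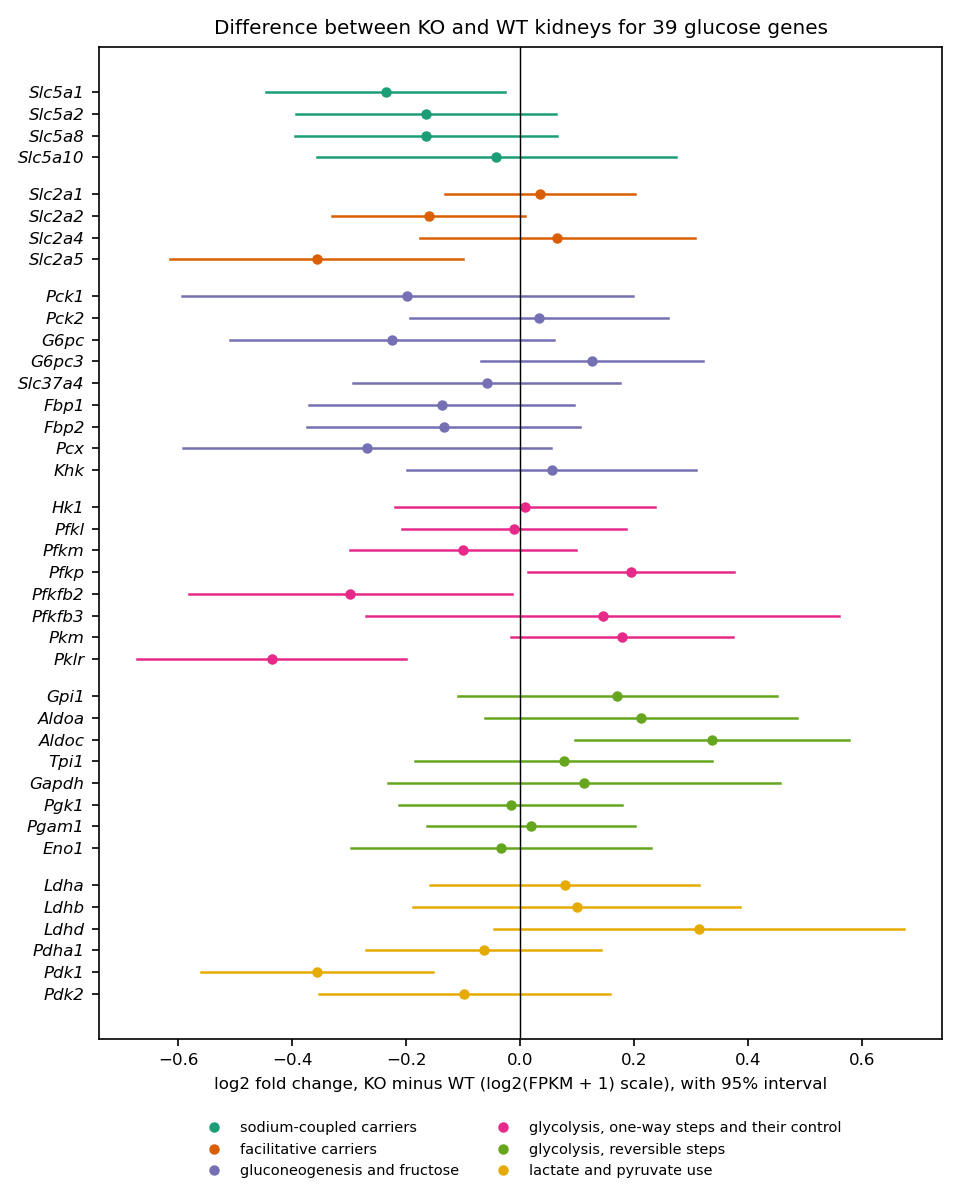
Log2 fold change (KO minus WT, on the log2(FPKM + 1) scale, horizontal axis) of the 39 tested genes, with 95% intervals from limma, ordered by role. The values lie between -0.44 for Pklr and 0.34 for Aldoc, and most intervals cross the line at 0.

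The sodium-coupled carriers take sugars and monocarboxylates from the urine side into the cell. Slc5a2 encodes SGLT2, the main carrier of glucose reabsorption, and was at 304, 294, 350.4 and 319 FPKM in WT and 298, 245, 297 and 291 in KO. KO replicate 2 was lowest, and the groups overlapped because KO replicates 1 and 3 lay above the lowest WT mouse. Its log2 fold change, with SE, was -0.17 ± 0.10 (limma adjusted p = 0.86), and -0.10 without KO replicate 2. Of its exon bases, 20.6% are shared with BC017158 on the opposite strand, so some of these reads could be from that gene.

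Slc5a1, which encodes SGLT1, the high-affinity carrier that takes up what SGLT2 leaves, was at 18.4, 17.1, 22.4 and 19.8 FPKM in WT. It was at 16.2, 15.6, 16.0 and 17.4 FPKM in KO. Only KO replicate 4 reached above the lowest WT mouse. KO minus WT on the log2 scale was -0.24 ± 0.09 (limma unadjusted p = 0.03, adjusted p = 0.77). Slc5a8, a sodium-coupled carrier of lactate and other monocarboxylates, averaged 47.0 ± 4.6 FPKM in WT and 41.8 ± 4.6 in KO. Slc5a10, a carrier of mannose and fructose, was at 162 ± 19.7 and 159 ± 30.7 FPKM. Of its exon bases, 16.8% are shared with Grap and Fam83g on the opposite strand. Its highest KO value, 204 FPKM, was that of KO replicate 2, and without this mouse its log2 fold change went from -0.04 to -0.17. All 4 carriers of this kind had negative log2 fold changes, with a median of -0.17, against -0.00 over all genes tested. In these kidneys Slc5a2 made up 63.6% ± 1.93 of the summed FPKM of Slc5a1, Slc5a2 and Slc5a10 in WT, and 61.8% ± 6.1 in KO.

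The facilitative carriers move sugars down their gradient. Slc2a5 encodes GLUT5, a fructose carrier, and was at 50.3, 57.1, 67.4 and 49.3 FPKM in WT. In KO it was at 42.2, 40.1, 41.3 and 49.7 FPKM. WT replicate 3 was highest, and the groups overlapped only through KO replicate 4, which passed the lowest WT mouse. On the log2 scale the difference was -0.36 ± 0.12 (limma unadjusted p = 0.011, adjusted p = 0.66), and KO held 77.4% of the WT mean.

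Slc2a2 encodes GLUT2, the exit path for glucose on the blood side of the early proximal tubule. It was at 94.4, 104, 104 and 97.6 FPKM in WT and at 89.2, 90.3, 86.8 and 90.7 in KO. All 4 KO mice lay below all 4 WT mice, as did those of 2.45% of all genes tested. The log2 fold change was small, -0.16 ± 0.08 (limma unadjusted p = 0.061, adjusted p = 0.82), and lay between -0.19 and -0.14 in all 16 alternatives. Slc2a1, the GLUT1 carrier of the more distal segments, averaged 19.0 ± 0.305 FPKM in WT and 19.5 ± 1.22 in KO. Slc2a4, the insulin-regulated GLUT4, was at 8.62 ± 1.24 and 9.02 ± 0.746 FPKM. Slc2a3, the neuronal type GLUT3, was near the limit of detection with 18 to 55 reads per mouse.

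The facilitative carriers were also set against each other. Slc2a1 made up 9.58% to 11.1% of the summed FPKM of Slc2a1 to Slc2a5 in the WT mice and 11.5% to 12.8% in the KO mice. Slc2a4 made up 4.21% to 5.02% in WT and 5.08% to 5.89% in KO. Neither share overlapped between the groups, while those of Slc2a2 (51.8% to 56.4% and 52.9% to 57.0%) and Slc2a5 (28.5% to 33.5% and 25.3% to 29.0%) did. A share moves when any gene of the sum moves, and Slc2a1 itself was nearly level.

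The genes of gluconeogenesis and fructose use were among the most abundant of the list. Pck1 encodes the cytosolic enzyme that turns oxaloacetate into phosphoenolpyruvate, the entry step of glucose making. It was at 1453, 1761, 1660.3 and 2330.0 FPKM in WT and at 1165, 1722, 1614 and 1768 in KO. The spread within each genotype was wide, with WT replicate 4 highest and KO replicate 1 lowest, and the other values were mixed. This gave a log2 fold change of -0.20 ± 0.18 (limma adjusted p = 0.87), which was -0.061 without KO replicate 1, -0.067 without WT replicate 4 and -0.29 at its lowest, without WT replicate 1.

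G6pc encodes the catalytic subunit of glucose-6-phosphatase, which frees glucose in the last step. It was at 336, 327, 322 and 351 FPKM in WT and at 225, 278, 312 and 341 in KO. The WT mice were close together, 3 KO mice lay below all of them and KO replicate 4 lay among them. The log2 fold change was -0.23 ± 0.13 (limma adjusted p = 0.86), and -0.11 without KO replicate 1. Pcx, the mitochondrial pyruvate carboxylase that makes oxaloacetate, averaged 392 ± 25.8 FPKM in WT and 330.0 ± 67.7 in KO, the lowest KO value being the 247 FPKM of KO replicate 2. Its log2 fold change of -0.27 ± 0.15 became -0.14 without that mouse.

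Fbp1, the fructose bisphosphatase of liver and kidney, averaged 958 ± 95.9 FPKM in WT and 868 ± 30.4 in KO. Slc37a4, which carries glucose 6-phosphate into the endoplasmic reticulum, was at 193 ± 20.9 and 185 ± 14.4 FPKM. Khk, the ketohexokinase that starts fructose breakdown, was at 620.4 ± 37.3 and 648 ± 87.3 FPKM. The isozymes not typical of the proximal tubule were lower in level. Pck2, the mitochondrial form, was at 7.33 ± 0.607 FPKM in WT, Fbp2, the muscle form, at 11.4 ± 0.322 and G6pc3, the form found in most tissues, at 47.4 ± 3.0. In KO they were at 7.54 ± 0.919, 10.4 ± 1.72 and 51.9 ± 4.23 FPKM. None of the 9 genes had an unadjusted p under 0.05, 6 had a negative log2 fold change and the median was -0.13.

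The one-way steps of glycolysis are those that hexokinase, phosphofructokinase and pyruvate kinase catalyse. Pklr encodes the liver and red cell form of pyruvate kinase, found in the proximal tubule, and had the lowest p of the list. It was at 22.5, 25.6, 28.9 and 26.8 FPKM in WT and at 20.1, 16.9, 17.4 and 21.5 in KO. All 4 KO mice lay below all 4 WT mice, though KO replicate 4 and WT replicate 1 were close. KO minus WT on the log2 scale was -0.44 ± 0.11 (limma unadjusted p = 0.0021, adjusted p = 0.37), and KO held 73.0% of the WT mean. With a quality weight for each library, which put KO replicate 2 at 0.0992, the log2 fold change was -0.47 with a limma adjusted p of 0.028. Leaving that mouse out gave -0.39 with a limma adjusted p of 0.17. Pklr lies on chromosome 3 from 89136142 to 89146784 (mm10, plus strand), and 22.0% of its exon bases are shared with Hcn3 on the opposite strand.

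Pkm, the form of most other cells, was at 120.1, 135, 144 and 135 FPKM in WT and at 148, 153, 144 and 159 in KO. The lowest KO mouse was at the level of the highest WT mouse. On the log2 scale the difference was 0.18 ± 0.09 (limma adjusted p = 0.82). As a share of Pkm and Pklr together, Pklr stood at 15.8%, 16.0%, 16.7% and 16.6% in the 4 WT mice and at 11.9%, 9.92%, 10.8% and 11.9% in the 4 KO mice. The WT mice lay within 1 percentage point and the KO mice lay well below them, with KO replicate 2 lowest but the other 3 apart from WT as well. The mean share was 16.3% ± 0.457 in WT and 11.1% ± 0.967 in KO. It is given as a description, since it is made of the gene with the lowest p in the list. Pkm has 15.3% of its exon bases in common with Gm49759.

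Among the phosphofructokinases, Pfkl and Pfkm led and differed little by genotype. Pfkl averaged 31.4 ± 2.01 FPKM in WT and 31.2 ± 2.82 in KO, and Pfkm 29.3 ± 2.37 and 27.2 ± 2.01. Pfkp, the platelet type form, was at 7.85, 7.30, 7.50 and 6.68 FPKM in WT and at 8.47, 9.09, 8.29 and 8.26 in KO. All 4 KO mice lay above all 4 WT mice, as did those of 2.71% of all genes tested. This gave a log2 fold change of 0.19 ± 0.08 (limma unadjusted p = 0.038, adjusted p = 0.79).

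Pfkfb2 and Pfkfb3 encode enzymes that set the level of fructose 2,6-bisphosphate, the activator of phosphofructokinase. Pfkfb2 was at 2.13, 2.04, 1.91 and 1.99 FPKM in WT and at 1.80, 0.881, 1.63 and 1.62 in KO, so all KO mice lay below WT, KO replicate 2 furthest. The log2 fold change was -0.30 ± 0.13 (limma unadjusted p = 0.041, adjusted p = 0.8), and -0.17 without KO replicate 2. Pfkfb3 averaged 3.58 ± 0.573 FPKM in WT and 4.19 ± 1.5 in KO, where KO replicate 4 had 6.24 FPKM and KO replicate 2 had 2.70. Of the summed FPKM of both, Pfkfb2 made up 32.7% to 42.9% in the WT mice and 20.6% to 31.0% in the KO mice. Pfkfb2 had 68 to 203 reads per mouse, and 19.5% of its exon bases lie in other genes, Gm29427 and Yod1.

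Hexokinase RNA was nearly all of Hk1, which made up at least 98.9% of Hk1 and Hk2 in every mouse. Hk1 averaged 35.5 ± 1.26 FPKM in WT and 36.0 ± 5.1 in KO. Hk2 was at 0.165 ± 0.0407 and 0.311 ± 0.106 FPKM, with 12 to 22 reads in the WT mice and 24 to 52 in the KO mice. All KO mice lay above WT for Hk2. In the fit without a filter on low values, its log2 fold change was 0.17 ± 0.07 (limma unadjusted p = 0.038, adjusted p = 0.86).

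**Figure D2:**
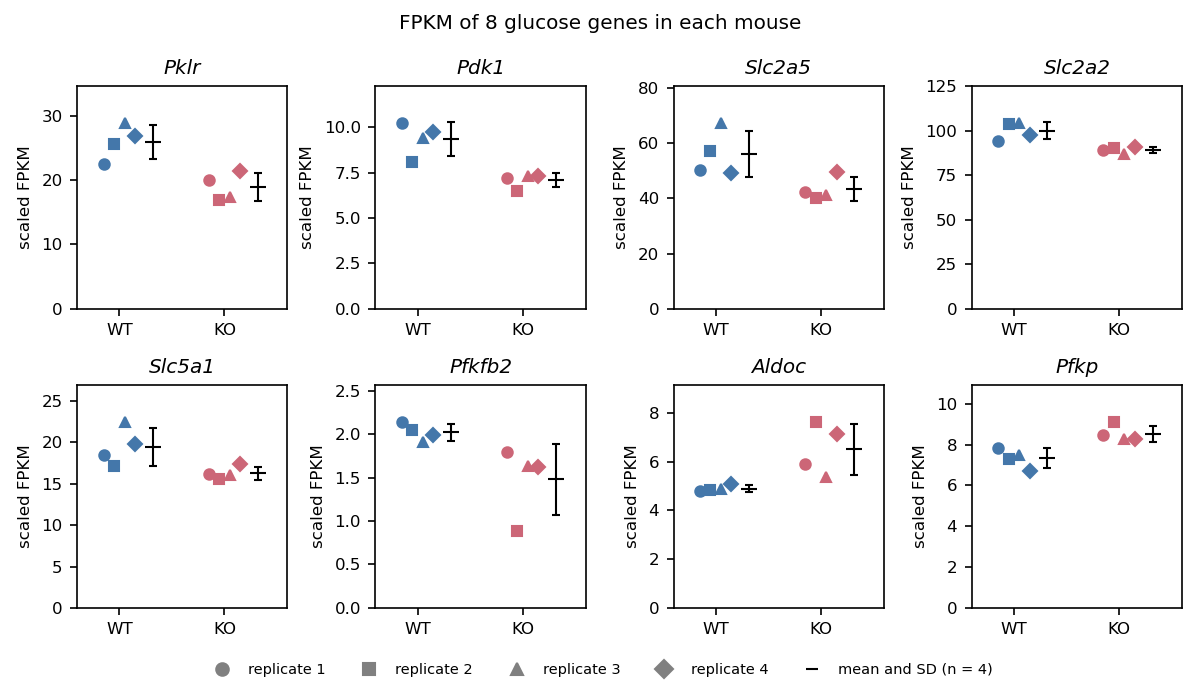
FPKM (vertical axis, from 0) of 8 genes in each of the 4 WT and 4 KO mice, with the mean and SD of each genotype. The KO points of Pklr, Pdk1, Slc2a2 and Pfkfb2 lie below all WT points, those of Aldoc and Pfkp above, and those of Slc2a5 and Slc5a1 overlap with WT by KO replicate 4.

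The reversible steps run in both directions and serve glucose making as well as glucose use. Aldoc, an aldolase best known from brain, was at 4.78, 4.84, 4.88 and 5.08 FPKM in WT and at 5.89, 7.61, 5.35 and 7.14 in KO. The WT mice were close together and every KO mouse lay above them, KO replicates 2 and 4 furthest. KO minus WT on the log2 scale was 0.34 ± 0.11 (limma unadjusted p = 0.011, adjusted p = 0.65), and 0.27 without KO replicate 2. Aldoc lies on chromosome 11, the chromosome of C1qtnf1, 40.1 Mb away from it. Of the 41 genes, 6 lie on that chromosome, G6pc3 nearest to C1qtnf1 at 16.2 Mb. Aldoc was a small part of aldolase RNA, since Aldoa, the widely expressed form, averaged 614 ± 42.0 FPKM in WT and 716 ± 114 in KO. The log2 fold change of Aldoa was 0.21, and 0.11 without KO replicate 2.

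Gapdh, the dehydrogenase in the middle of the pathway, was the most abundant enzyme of this role at 1408, 1849, 1943 and 1827 FPKM in WT and at 1712, 2442, 1689 and 1788 in KO. KO replicate 2 was far above the other KO mice, WT replicate 1 below the other WT mice, and the rest were mixed. On the log2 scale the difference was 0.11 ± 0.15 (limma adjusted p = 0.9), and -0.01 without KO replicate 2. This gene often serves as a reference for other measurements.

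Eno1, the enolase, averaged 588 ± 80.0 FPKM in WT and 571 ± 37.8 in KO. Tpi1, the triose phosphate isomerase, was at 533 ± 66.5 and 560.1 ± 45.8 FPKM. Pgk1, a kinase that makes ATP, was at 301 ± 20.3 and 297 ± 9.61 FPKM. Gpi1, the glucose phosphate isomerase, and Pgam1, the phosphoglycerate mutase, were at 155 ± 21.1 and 86.4 ± 5.27 FPKM in WT and at 174 ± 20.1 and 87.5 ± 4.19 in KO. For Gpi1 the log2 fold change was 0.17, and 0.094 without KO replicate 2 or 0.066 without WT replicate 1. Of the 8 genes, 6 had a positive log2 fold change, with a median of 0.09. Several have processed copies in the genome. Of all runs of 50 bases in their exons, 53.9% for Pgk1, 36.2% for Pgam1, 26.0% for Eno1 and 25.1% for Gapdh also occur in another annotated gene, so their levels are uncertain.

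Lactate and pyruvate link glycolysis with the mitochondria. Pdk1 encodes a kinase that switches off pyruvate dehydrogenase and is known to respond to low oxygen. It was at 10.2, 8.06, 9.43 and 9.76 FPKM in WT and at 7.22, 6.50, 7.30 and 7.31 in KO. All KO mice lay below WT, with WT replicate 2 the nearest. This gave a log2 fold change of -0.36 ± 0.09 (limma unadjusted p = 0.0029, adjusted p = 0.44), and -0.32 with a limma adjusted p of 0.19 without KO replicate 2. Pdk1 lies on chromosome 2 from 71873224 to 71903858 (mm10, plus strand) and shares no exon base with another gene. Pdk2, its main relative here, averaged 194 ± 25 FPKM in WT and 181 ± 14.0 in KO.

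Ldha and Ldhb encode the subunits of lactate dehydrogenase, of which Ldha is the form of glycolytic cells and Ldhb that of oxidative cells. Ldha made up 37.0% ± 1.65 of the sum in WT and 36.7% ± 1.86 in KO. Ldha averaged 449 ± 46.2 FPKM in WT and 474 ± 35.5 in KO, and Ldhb 767 ± 82.8 and 824 ± 119. Without KO replicate 2 the log2 fold change of Ldhb went from 0.10 to 0.00033 and that of Ldha from 0.08 to 0.032. Of the runs of 50 bases in Ldhb, 21% also occur in Gm5514, so its level and both shares are uncertain. Ldhd, a mitochondrial D-lactate dehydrogenase, was at 226, 362, 340.3 and 269 FPKM in WT and at 358, 313, 433 and 369 in KO. The groups overlapped, and 42.2% of its exon bases are shared with Znrf1 on the opposite strand. Pdha1, the catalytic subunit of pyruvate dehydrogenase, was at 121 ± 2.85 and 116 ± 11.8 FPKM. It shares 16.1% of its exon bases with Map3k15 on the opposite strand.

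**Figure D3:**
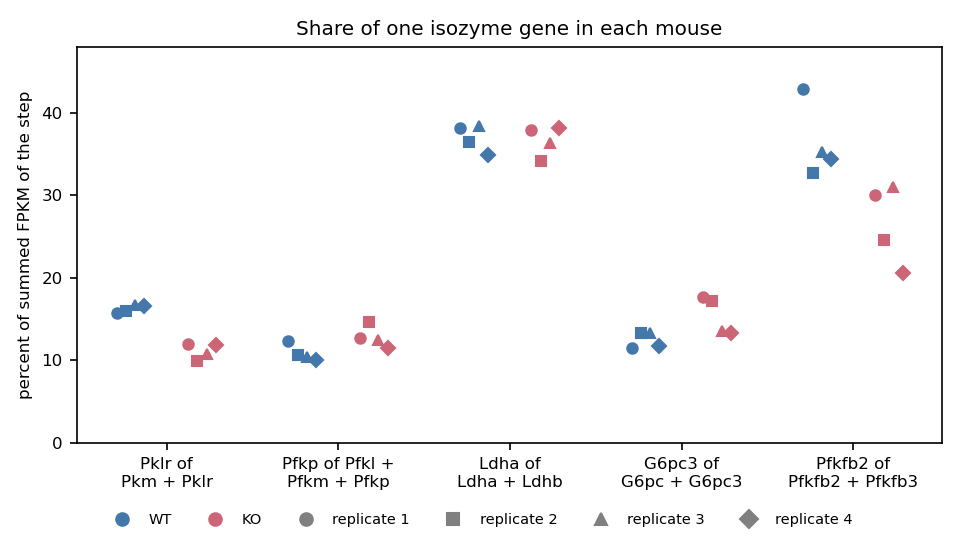
Share of one isozyme gene in the summed FPKM of its step (percent, vertical axis from 0) in each mouse. The KO points lie below the WT points for Pklr (9.92% to 11.9% against 15.8% to 16.7%) and Pfkfb2, lie just above them for G6pc3 and overlap for Pfkp and Ldha.

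The question set for these genes was how the transport and glucose-making genes of the proximal tubule compare with the glycolytic genes of other segments. The first group held 12 genes, the 4 sodium-coupled carriers, Slc2a2, Slc2a5, Pck1, G6pc, Slc37a4, Fbp1, Pcx and Khk. The second held 19 genes, of which 18 were tested: Slc2a1, the glycolytic steps other than Pklr, Ldha and Ldhb. Of the 12 proximal genes, 11 had a negative log2 fold change, against 50.6% of all genes tested, and Khk alone was positive at 0.06. Their median was -0.17. Of the 18 glycolytic genes, 13 had a positive value and the median was 0.08. Without KO replicate 2 the counts were 12 of 12 and 13 of 18, and the glycolytic median was 0.039. This median moved with single mice and was 0.013 without WT replicate 1, 0.038 without KO replicate 4 and 0.13 without WT replicate 3. The positive glycolytic genes were 10 of 18 without WT replicate 1, without KO replicate 4 and with a quality weight for each library, where the median was 0.012. The proximal median lay between -0.20 and -0.15 in all 16 alternatives. With the FPKM as deposited, which moved the median of all genes to -0.03, they were 11 of 12 and 11 of 18. At an unadjusted p under 0.05 were 2 proximal genes (both lower in KO) and 3 glycolytic genes (2 higher and 1 lower). The glycolytic group includes the 8 genes of the reversible steps, which also serve glucose making. Of these, 6 had a positive log2 fold change, with a median of 0.09. The 8 tested genes of the one-way steps and their control, Pklr among them, were evenly divided. Of those, 4 were positive and 4 negative, with a median of -0.0008.

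Summarised per mouse as the mean log2 level of a group less its WT mean, the proximal genes were at -0.11, -0.01, 0.09 and 0.04 in WT and at -0.22, -0.17, -0.20 and -0.06 in KO. Of the KO mice, replicate 4 lay inside the WT range and the other 3 below it. The glycolytic genes were at -0.14, 0.03, 0.09 and 0.02 in WT and at 0.04, 0.10, 0.00 and 0.13 in KO, so the groups overlapped. The difference between both, glycolytic minus proximal, did not overlap. It was at -0.03, 0.04, 0.00 and -0.01 in WT and at 0.26, 0.26, 0.20 and 0.20 in KO. The groups of genes were drawn up with earlier results of these data known, so this difference is a description and carries no p. Between the medians of both groups the gap was 0.24, and it lay between 0.20 and 0.29 in all alternatives, with 0.20 without KO replicate 2 and 0.22 with the length trend taken out of each library.

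**Figure D4:**
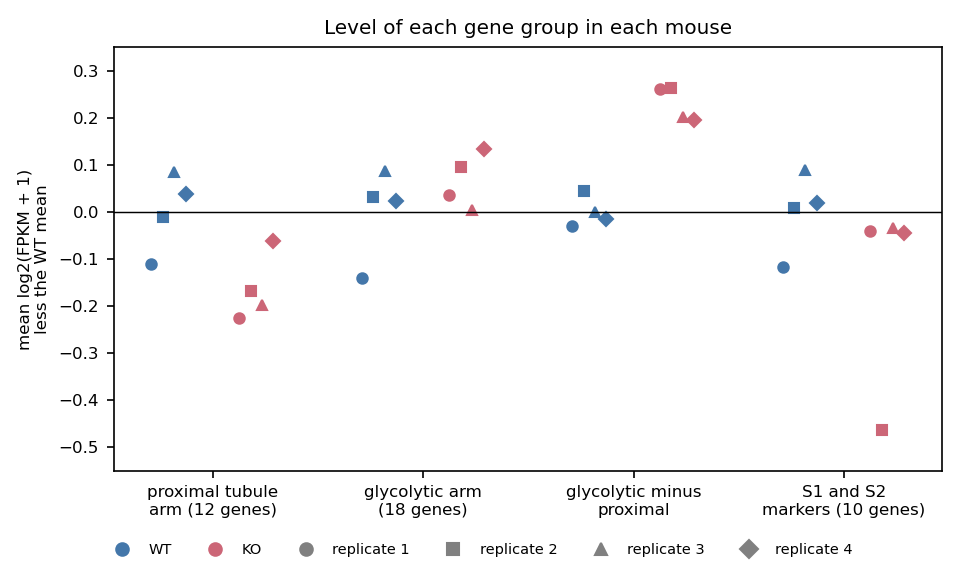
Mean log2(FPKM + 1) of each gene group less its WT mean (vertical axis) in each mouse, for the proximal genes, the glycolytic genes, their difference and the proximal S1 and S2 marker genes. The difference lies between -0.03 and 0.04 in WT and between 0.20 and 0.26 in KO, and the marker level is -0.46 in KO replicate 2.

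Marker genes of the cell types moved with these groups in part. The 10 markers of the S1 and S2 segments of the proximal tubule, led by Slc34a1, were at -0.12 to 0.09 in WT and at -0.04, -0.46, -0.03 and -0.05 in KO on the same scale. The marker level of KO replicates 1, 3 and 4 lay inside the WT range of the markers. The proximal glucose genes of KO replicates 1, 2 and 3 lay below their own WT range. Long genes were low in KO replicate 2, and the markers include Lrp2 of 15460 bases and Cubn of 11373. The part of cell numbers in these levels was not tested. Of these markers, 9 of 10 had a negative log2 fold change, and their summed level was 4760.0 to 5839 FPKM in WT and 4673 to 5453 in KO. The 7 markers of the S3 segment were at -0.13 to 0.22 in WT and at 0.10 to 0.44 in KO, with summed levels of 1841 to 2363 and 2320.2 to 3122 FPKM. Its members went both ways, 4 positive and 3 negative, with a median log2 fold change of 0.08. Slc22a7 was highest at 1.64 and Slc7a12 lowest at -0.75. Most of the summed level was Acy3, with a mean of 1516 FPKM in WT and 2012 in KO.

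For cells that use glycolysis, 5 of the 6 tested markers of collecting duct principal cells had a positive log2 fold change, 2 of them higher in KO at an unadjusted p under 0.05 (3.93% of all genes tested). Their summed level was 339 to 461 FPKM in WT and 417 to 619.9 in KO, and the remaining marker, Avpr2, had at most 2 reads in a mouse. The largest part of this sum was Aqp2, with a mean of 201 FPKM in WT and 317 in KO. Log2 fold changes of the tested principal cell markers ran from -0.02 for Aqp3 to 0.64 for Aqp2, with a median of 0.19. Markers of the other distal segments were negative in the larger part. This held for 4 of 7 in the thick ascending limb (median -0.10), 3 of 5 in the distal convoluted tubule (median -0.12) and 4 of 6 in intercalated cells (median -0.02). The level of the thick ascending limb markers was -0.11 to 0.09 in WT and -0.12 to -0.01 in KO, so the groups overlapped, as they did for the other segments named. Urothelial markers (cells that line the renal pelvis) summed to 3.54 to 9.48 FPKM in the WT mice and 14.1 to 31.2 in the KO mice. Of 8 listed, 6 were tested, and all 6 were higher in KO at an unadjusted p under 0.05 in limma. Upk2, Upk3a, Upk3b and Krt5 averaged under 1 FPKM in WT and reached the mean needed for the test only through KO. This count was thus set in part by the filter and cannot be weighed against the same 3.93% of all genes. Upk2 had as few as 5 reads in a mouse, and Upk1b and Krt20 were below the filter. No urothelial marker passed limma's test after adjustment. Macrophage markers were highest in KO replicate 4 (0.69) and KO replicate 3 (0.31), while WT mice ranged from -0.06 to 0.12. Of 5 tested, 4 were positive and 1 negative. Of 5 smooth muscle and pericyte markers, 3 were higher and 1 lower in KO at an unadjusted p under 0.05 in limma. Over all genes tested these shares were 3.93% and 2.2%. Their levels overlapped, at -0.13 to 0.15 in WT and 0.05 to 0.19 in KO. Endothelial markers were negative in 5 of 6 (median -0.19), with a level of -0.71 in KO replicate 2. Podocyte and fibroblast medians were 0.0009 and 0.04. Immediate early and heat shock genes, which respond to handling of tissue, were together at -0.21 to 0.14 in WT and at 0.51 to 1.5 in KO, highest in KO replicate 2. The immediate early and the heat shock genes differed by mouse. In KO replicate 1 Junb (16.9 FPKM, 20.4 to 23.0 in WT), Egr1 and Ier2 lay below all WT mice. Fos lay inside the WT range and Jun just above it, while Hspa1b was at 55.9 FPKM (7.30 to 12.6 in WT). In KO replicate 2 Hspa1b, at 11.6 FPKM, lay inside the WT range, and Junb was at 121 FPKM. The part of these cell types and of tissue handling in the differences between the glucose genes was not tested.

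Gene length was followed in the same way, since KO replicate 2 had low values of long genes. Over the 39 genes the Spearman correlation between deviation from the WT mean and length was -0.56 in that mouse and between -0.26 and 0.36 in the others. In that mouse tested genes of 4410 bases or more averaged -0.31 and those of up to 1849 bases 0.34. Among the glucose genes, Pcx, of 4148 bases, was at -0.66 in that mouse, and Khk, of 1456 bases, at 0.32. Its part in single differences is shown by the values without it, given above.

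**Figure D5:**
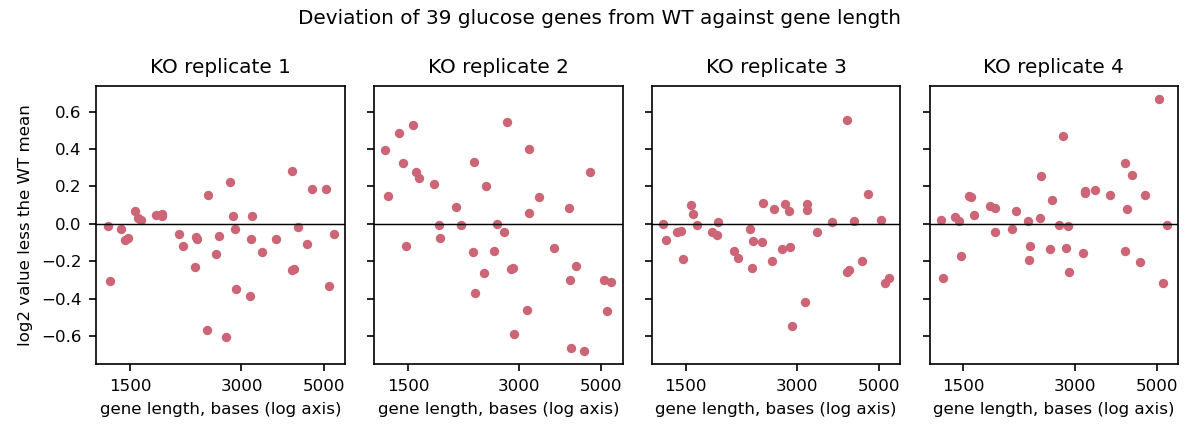
Log2 value of each of 39 genes in a KO mouse less its WT mean (vertical axis) against gene length in bases (log axis), for the 4 KO mice. The points of KO replicate 2 run downward with length (Spearman -0.56), and those of the other KO mice show no such slope.

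The promoters of the genes were searched for letters known from textbook regulators of each group, as a description of sequence with no bearing on any measured binding. RefSeq promoter windows (GRCm38.p6, 300 bases around each start) were found for 38 of the 41 genes. The letters GTTAAT, or ATTAAC on the other strand, are part of the site of HNF1, a proximal tubule transcription factor. They occurred in 4 of 11 proximal genes (36.4%), in 0 of 19 glycolytic genes and in 8.24% of all 27025 genes with a window. The letters ACGTG, or CACGT, are the core of the site of HIF, the factor that answers low oxygen. They occurred in 3 of 11 proximal genes (27.3%), in 13 of 19 glycolytic genes (68.4%) and in 21.8% of all genes. All 3 proximal genes with these letters had them at least once inside the E-box CACGTG, against 4 of 13 glycolytic genes. Genes can have more than 1 window, which raises the share per gene. There were 15 windows for the 11 proximal genes, 33 for the 19 glycolytic genes and 32851 for all genes. Per window, in that order, the HNF1 letters occurred in 26.7%, 0.0% and 7.1%. For the HIF letters these shares were 20.0%, 51.5% and 19.6%. The windows compared were not matched for base composition. A match is not a binding site, and genes without one are not shown to lack the factor.

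To show the letters in place, 6 windows of 30 bases are given 5′ to 3′ on the strand of the gene, with the searched letters in capitals. The first 3 are of proximal genes with the HNF1 letters, at chr2:173152869-173152898 (plus), chr11:101367483-101367512 (plus) and chr11:61720857-61720886 (minus). The other 3 are of glycolytic genes with the HIF letters, at chrX:106186938-106186967 (plus), chr19:41911745-41911774 (plus) and chr15:98092442-98092471 (plus). All lie upstream of the annotated gene.
Pck1: ctcccaacattcATTAACaaccacaagttc
G6pc: cagtgtgcccaaGTTAATaattggctctgc
Slc5a10: agatgctcactcATTAACacttttggaagg
Pgk1: gcgtcgtgcaggACGTGacaaatggaagta
Pgam1: cgctccttgcttACGTGcgctccgtgactg
Pfkm: attaagtatgccACGTGaagtaagtaattt
None of these 6 genes had an unadjusted p under 0.05 between KO and WT. Pfkm, whose ACGTG is also part of an E-box, had a log2 fold change of -0.10, Pgk1 of -0.02 and Pgam1 of 0.02, while Pck1 was at -0.20, G6pc at -0.23 and Slc5a10 at -0.04. Khk, the proximal gene with the HNF1 letters whose window is not shown, was at 0.06.

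Of the other genes around these pathways, 9 lists were looked up, and no gene in any of them passed the limma test after adjustment. The list of enzymes and carriers that feed carbon into gluconeogenesis had 17 tested genes, 4 lower and 1 higher in KO at an unadjusted p under 0.05, against 2.2% and 3.93% of all genes. Slc38a3, which takes glutamine from blood into proximal tubule cells, was at 18.8, 15.9, 15.9 and 16.6 FPKM in WT and at 9.19, 12.7, 12.5 and 13.8 in KO. All KO mice lay below WT, KO replicate 1 furthest. The log2 fold change was -0.46 ± 0.12 (limma unadjusted p = 0.0033, adjusted p = 0.46). Gpt2, the mitochondrial alanine aminotransferase, averaged 30.4 ± 1.76 FPKM in WT and 25.7 ± 0.882 in KO, again without overlap (limma adjusted p = 0.65).

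The step from glucose to sorbitol is the work of aldose reductase, encoded by Akr1b3, which is known to respond to salt in the renal medulla. It was at 15.5, 21.3, 17.9 and 17.0 FPKM in WT and at 47.5, 30.9, 21.3 and 55.8 in KO. Every KO mouse lay above WT, KO replicate 3 by a narrow margin and KO replicates 1 and 4 by far. KO minus WT on the log2 scale was 0.99 ± 0.25 (limma unadjusted p = 0.0029, adjusted p = 0.44). Sord, the sorbitol dehydrogenase that turns sorbitol into fructose, was at 1000.0 ± 79.1 and 905 ± 33.5 FPKM.

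Outside the carbon feed list, Akr1b3 and Gapdhs were the only listed pathway genes at an unadjusted p under 0.05. Of all genes tested, 50.6% had a negative log2 fold change. Of 8 genes of the pentose phosphate pathway, 7 had a positive one, with a median of 0.07. They were led by Pgls, with 22.7 ± 1.78 FPKM in WT and 25.9 ± 4.93 in KO, and Taldo1, with 210.0 ± 22.7 and 238 ± 39.7. KO replicate 2 was highest in both, at 32.8 and 298 FPKM. The mean log2 level of this list was 0.18 in that mouse, 0.038 to 0.045 in the other KO mice and -0.066 to 0.046 in WT. Of 15 genes of glycogen metabolism, 13 had a negative log2 fold change, with a median of -0.06. They were led by Gys1, the glycogen synthase of muscle type, at 15.1 ± 0.835 and 13.2 ± 2.11 FPKM. Next was Pygm, a glycogen phosphorylase, at 3.78 ± 0.636 and 3.04 ± 0.759. The level of this list was -0.18 in KO replicate 2, -0.063 to 0.00085 in the other KO mice and -0.017 to 0.032 in WT. Among carriers of lactate and pyruvate, Slc5a12 averaged 85.2 ± 8.68 FPKM in WT and 66.2 ± 17.4 in KO, where KO replicate 2 had 41.1 FPKM, and Slc16a7 13.7 ± 1.26 and 12.2 ± 1.09. Pdk4 and Pdk3, further kinases of pyruvate dehydrogenase, were at 3.86 ± 0.509 and 15.6 ± 1.85 FPKM in WT and at 3.33 ± 0.493 and 17.3 ± 1.33 in KO. Mlxipl, the carbohydrate-sensing transcription factor ChREBP, was at 41.6 ± 3.73 and 36.7 ± 6.1 FPKM, and Insr, the insulin receptor, at 14.0 ± 0.3 and 12.3 ± 2.58. The other hexose carriers with the lowest p, Slc5a9 and Slc2a8, were at 11.1 ± 1.19 and 13.6 ± 1.75 FPKM in WT and at 9.86 ± 1.4 and 14.8 ± 1.15 in KO. The other glycolysis enzymes with the lowest p, Gapdhs and Pfkfb4, were at 1.22 ± 0.161 and 3.14 ± 0.469 FPKM in WT and at 0.897 ± 0.115 and 2.72 ± 0.279 in KO. Of the 8 tested genes of that list, 7 had a negative log2 fold change, with a median of -0.08.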

How the data were processed

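RNA of 8 kidneys was sequenced by the submitters after poly-A selection, per the labels' protocols. The authors deposited 1 table of normalised values per gene and mouse without a unit in its header. The values behave as FPKM, since low deposited values are whole multiples of a step that shrinks with gene length, and are used as FPKM. CASAVA, STAR 2.5, HTSeq 0.6.1, DESeq2 and build mm10 are named in the submitters' processing notes. For their roles, the annotation and the strand setting: not given in the sources used here. Reads recovered from the steps were whole within 0.002 reads for 22945 of 22945 genes above 0. With totals shifted by up to 0.1%, 0.0% of 500 genes were. Positions are from GENCODE M21 (97.8% of genes matched).

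FPKM were divided by trimmed-mean scaling factors (0.931 to 1.041) and tested with limma 3.58.1 (R 4.3.3, statmod 1.5.0, trend and robust options) on log2(FPKM + 1), KO minus WT, wherever the mean FPKM reached 1, with Benjamini-Hochberg adjustment over all of them at 0.05. Fold changes on this scale understate those of low genes. Means are given ± SD with n = 4, fold changes ± SE. Each p reflects spread among 4 mice a group. The procedure was tested on simulated data. Alternatives were other scalings, filters, a pseudocount of 0.1, limma-voom on recovered reads, library weights and leaving out each mouse. A correction for gene length was added after seeing the data. The genes, lists and tests were chosen with earlier results of these data known. Named are all genes of the list, and from each further pathway list the 2 with the lowest p, besides a few said to be chosen after their values were seen. Single marker genes are named to explain the level of their list, also after their values were seen.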

Additional observations from a re-analysis of the deposited data

Results flagged for a closer look

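In 96 groups of 4 mice (39 tested genes and 9 summary levels, each by genotype), the highest or lowest mouse stood far from the other 3 in 7, where chance gives about 1 in 20. In KO replicate 2, Gapdh was at 2442 FPKM (1689 to 1788 in the other KO mice), Ldhb at 1003 (756 to 774) and Aldoa at 885 (642 to 679). In the same mouse Slc5a2 was at 245 FPKM (291 to 298) and Pdk1 at 6.50 (7.22 to 7.31). In WT replicate 1, Gpi1 was at 124 FPKM (162 to 169 in the other WT mice) and Pdk2 at 157 (202 to 210.3). The 3 high genes of KO replicate 2 are short (1304 to 1549 bases) and Pdk1 is long (5185 bases), while Slc5a2 has 2277 bases.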

How the results depend on the processing

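Over 16 alternatives, the medians of the proximal and the glycolytic genes kept their signs, but the glycolytic one went from 0.08 to 0.012 with library weights, 0.013 without WT replicate 1 and 0.026 with the length trend removed. With library weights, 57 genes of the whole table passed, 1 gene of the list passed (Pklr), and 13 were at an unadjusted p under 0.05, where 14.3% of all genes were. With the length trend removed, 12 were (7.69% of all genes). With 1 mouse left out in turn, 3 to 23 genes of the whole table passed (22 without KO replicate 2 and 23 without KO replicate 3, and 3 without WT replicate 1 or 3), 4 to 10 genes of the list were at an unadjusted p under 0.05 (4.06% to 11.7% of all genes), and 7 to 10 did not overlap (7.13% to 11.5% of all genes), the most without KO replicate 4. No gene of the list passed in any of these. The sign of some small log2 fold changes turned. With library weights Pck2 was at -0.039, Khk at -0.052, Pfkl at 0.0066, Tpi1 at -0.032, Gapdh at -0.068, Ldha at -0.013, Ldhb at -0.037 and Pdha1 at 0.011. With the length trend removed Khk was at -0.012, Pfkl at 0.017 and Pgam1 at -0.029. With FPKM as deposited Hk1 was at -0.020 and Pgam1 at -0.010. With 1 mouse left out the range was -0.17 to 0.026 for Slc5a10, -0.0046 to 0.14 for Slc2a4, -0.016 to 0.095 for Pck2, -0.035 to 0.10 for Khk, -0.074 to 0.085 for Hk1, -0.066 to 0.032 for Pfkl, -0.030 to 0.29 for Pfkfb3, -0.015 to 0.13 for Tpi1, -0.013 to 0.17 for Gapdh, -0.058 to 0.018 for Pgk1, -0.018 to 0.054 for Pgam1 and -0.13 to 0.038 for Eno1. The cause was not tested. No paired analysis was possible because the labels tie no KO mouse to a WT mouse. Depth was lowest for Hk2 and Slc2a3, with 12 to 55 reads in a mouse, and for Pfkfb2, with 68 to 203.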

Other observations

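Other enzymes and carriers of the carbon feed of gluconeogenesis, chosen after their values were seen, had KO values wholly below WT. Slc25a13, the mitochondrial aspartate and glutamate exchanger, was at 51.4, 49.6, 57.0 and 52.0 FPKM in WT and at 45.3, 34.8, 43.8 and 47.7 in KO. The log2 fold change was -0.29 ± 0.11 (limma unadjusted p = 0.02, adjusted p = 0.72). Glud1, which turns glutamate into oxoglutarate, was at 215, 218, 207 and 231 FPKM in WT and at 189, 175, 199 and 197 in KO, with a log2 fold change of -0.19 ± 0.09 (limma unadjusted p = 0.046, adjusted p = 0.81). Sdsl, a serine dehydratase relative that was also chosen after its values were seen, was the 1 gene of that list higher at an unadjusted p under 0.05, at 5.65 ± 0.629 and 7.45 ± 1.81 FPKM, with 10.1 FPKM in KO replicate 2.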
